A study of Glycine max with 6 samples.

Results

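Fatty acid desaturases place double bonds into the acyl chains from which plant membranes and seed oil are built. In the plastid, stearoyl-acyl carrier protein desaturase (SACPD) turns stearate into oleate. In the endoplasmic reticulum, the omega-6 desaturase FAD2 turns oleate into linoleate and the omega-3 desaturase FAD3 turns linoleate into linolenate, a building block of leaf membranes and the starting material of jasmonate. Several of the soybean genes are known best from the seed, where mutations in FAD2-1A and FAD2-1B raise oleic acid in the oil, mutations in the FAD3 genes lower linolenic acid and mutations in SACPD-C raise stearic acid. Leaves have in addition plastid desaturases of the FAD6, FAD7 and FAD8 type.

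The expression of 8 such genes in drought-stressed leaves was compared with that in well-watered leaves. They were chosen by gene identifier, without regard to their values, and all 8 were present among the 66184 probe sets of the array, each with 1 probe set of its own. They comprised the omega-6 desaturase genes FAD2-1A (Glyma10g42470) and FAD2-1B (Glyma20g24530), the omega-3 desaturase genes FAD3A (Glyma14g37350), FAD3B (Glyma02g39230) and FAD3C (Glyma18g06950), and the stearoyl desaturase genes SACPD-A (Glyma07g32850), SACPD-B (Glyma02g15600) and SACPD-C (Glyma14g27990). The identifiers place them on chromosomes 10, 20, 14, 2, 18, 7, 2 and 14 of the Glyma1 annotation. In the RefSeq table, 6 of the 8 names matched 1 gene each, on the chromosome of the identifier. Among these, SACPD-B matched only as a synonym of ACPD. FAD3C matched the symbol of a gene on chromosome 18, that of its identifier, and also a synonym of FAD3-2b on chromosome 11. SACPD-A matched none. The names of SACPD-A, SACPD-B and FAD3C are thus less certain than their identifiers. Related copies may share probe sequence, which was not examined here, so how well the probe sets tell the copies apart is not known.

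The drought group held 3 plants, numbered 11, 12 and 13, left unwatered for 5 days once flowering had begun, by which time soil moisture was down to 5%. The control group held 3 plants, numbered 1, 3 and 4, which were watered as usual. All were of the cultivar Williams 82, kept in the same greenhouse conditions, and total RNA of the third trifoliate leaf was hybridised at full bloom (R2) to Affymetrix Soybean Gene 1.0 ST arrays, 1 array for each plant. The labels name a drought pot and a control pot, so pot and treatment cannot be told apart if each group shared a pot, and the p-values then cover only the spread between plants. Whole leaves were used, in which a change in the number of cells of a type and a change in RNA per cell cannot be told apart.

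Every value below is on a log2 scale and is centred gene by gene, 0 being the middle of a gene's 6 values. A value of 1 stands for 2 times the middle of that gene, and the levels of different genes cannot be ranked. Without absolute levels, neither the labelled tissue nor the presence of a transcript in the leaf could be checked from markers. The arrays themselves differed over all probe sets, with medians of 0.00, 0.00 and 0.04 in drought plants 11, 12 and 13 and of -0.11, 0.13 and -0.03 in well-watered plants 1, 3 and 4. Their 75th percentiles were 0.15, 0.16 and 0.22 in the drought plants and 0.08, 0.39 and 0.13 in the well-watered plants, in the same order.

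Of the 8 desaturase genes 5 were lower in drought-stressed leaves, namely all 3 FAD3 genes, SACPD-A and SACPD-B. These passed a limma adjusted p of 0.05, the adjustment (Benjamini-Hochberg) running over the whole array. Among all probe sets 9.95% were lower at that threshold and 9.96% were higher. With the study's further criterion of at least a 2-fold change, 2 genes were called lower, FAD3C and SACPD-B, against 4.63% of all probe sets. When each array was left out in turn, 2 to 4 genes passed the adjusted p and 1 to 3 were called lower. The shares of all probe sets in those fits are not given here, so these counts cannot be set against them. No desaturase gene was called higher by limma, against 4.98% of all probe sets, or by the methods' t-test, against 3.5%. At an unadjusted p under 0.05 (limma), 5 were lower and 0 higher, against 15% and 15.7% of all probe sets. The methods' t-test called the same 2 genes lower, against 3.08% of all probe sets, and at its adjusted p alone SACPD-A was lower too, against 5.92%. The median log2 fold change of the 8 genes was -0.72, whereas that of all probe sets was 0.02. In 5 of the 8 genes every drought value lay below every well-watered value, which held for 17.4% of all probe sets, and in 0 of the 8 did every drought value lie above, which held for 18.6%.

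**Figure D1:**
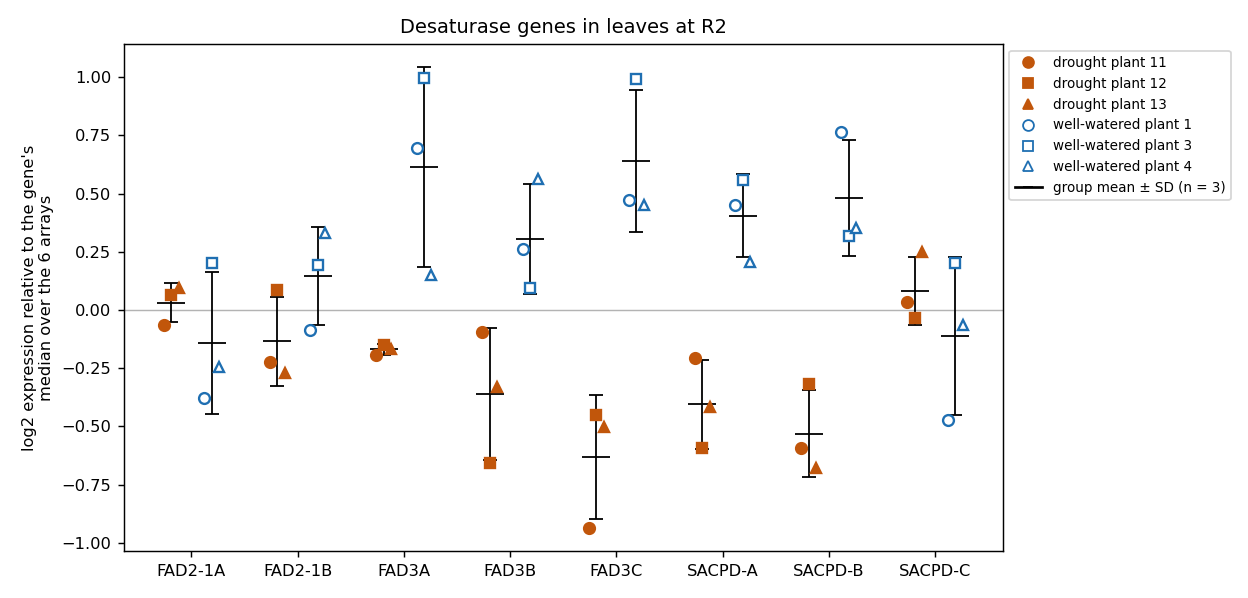
Centred log2 expression of the 8 desaturase genes (vertical axis) on the arrays of the 3 drought plants (filled) and the 3 well-watered plants (open), with the group mean and SD (n = 3). The drought values lie wholly below the well-watered values for the 3 FAD3 genes, SACPD-A and SACPD-B and overlap them for the other 3 genes.

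All 3 omega-3 desaturase genes, which act last in the chain, fell, FAD3C by the most on average. FAD3C measured -0.94, -0.45 and -0.50 in drought plants 11, 12 and 13, against 0.47, 0.99 and 0.45 in well-watered plants 1, 3 and 4. The groups were separated by a gap of 0.90, with drought plant 11 lowest and well-watered plant 3 highest. The log2 fold change was -1.27 ± 0.21 (SE, n = 3 per group), that is 2.41-fold lower in drought, with a 95% interval of -1.74 to -0.80 and an adjusted p of 0.00201 (limma). Only 2.79% of all probe sets had a more negative log2 fold change. The fold change lay between -1.36 and -1.09 when each array was left out in turn, and the adjusted p stayed under 0.05 in all 6 of these fits.

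FAD3A measured -0.19, -0.15 and -0.17 in drought plants 11, 12 and 13, against 0.69, 1.00 and 0.15 in well-watered plants 1, 3 and 4. The drought plants were almost alike (SD 0.02), while the well-watered plants were widely spread (SD 0.43), plant 4 lying near the drought values. FAD3A was thus 1.72-fold lower in drought, short of the 2-fold criterion, its log2 fold change being -0.78 ± 0.22 (SE, n = 3 per group) at an adjusted p of 0.0295 (limma).

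FAD3B measured -0.10, -0.66 and -0.33 in drought plants 11, 12 and 13, against 0.26, 0.10 and 0.56 in well-watered plants 1, 3 and 4. The groups did not overlap, but drought plant 11 and well-watered plant 3 came within 0.19 of each other. FAD3B was 1.59-fold lower, its log2 fold change being -0.67 ± 0.20 (SE, n = 3 per group) at an adjusted p of 0.0425 (limma). The calls of FAD3A and FAD3B at the adjusted p were lost under several alternatives. The methods' t-test gave adjusted p = 0.14 for FAD3A and 0.141 for FAD3B. When each array was left out in turn, FAD3A passed limma's test only without well-watered plant 4 (adjusted p = 0.00846, otherwise 0.0645 to 0.0858) and FAD3B only without drought plant 11 or well-watered plant 3 (0.0372 to 0.176 over the 6 fits). With array weights FAD3A stood at -0.43 (limma adjusted p = 0.0829), and with the 75th percentile subtracted again FAD3B had a limma adjusted p of 0.0664. The array weights were 0.48, 0.34 and 3.96 for well-watered plants 1, 3 and 4, so the weighted control mean leaned on plant 4. For the drought plants they lay between 1.06 and 1.32.

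The stearoyl desaturase genes, which act at the start of the chain, were lower in 2 of 3 cases. SACPD-B measured -0.59, -0.32 and -0.68 in drought plants 11, 12 and 13, against 0.77, 0.32 and 0.35 in well-watered plants 1, 3 and 4. The groups stood 0.64 apart, with well-watered plant 1 highest. The log2 fold change was -1.01 ± 0.19 (SE, n = 3 per group), or 2.01-fold lower, with a 95% interval of -1.43 to -0.59 and an adjusted p of 0.0039 (limma). The change thus sat on the 2-fold criterion. It was -0.98 without drought plant 11, -0.93 without drought plant 13 and -0.87 without well-watered plant 1, each short of 2-fold, whereas the adjusted p stayed under 0.05 in all 6 fits without 1 array.

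SACPD-A measured -0.21, -0.59 and -0.42 in drought plants 11, 12 and 13, against 0.45, 0.56 and 0.21 in well-watered plants 1, 3 and 4. Every drought plant lay at least 0.42 below every well-watered plant. SACPD-A was 1.75-fold lower, its log2 fold change being -0.81 ± 0.18 (SE, n = 3 per group) at an adjusted p of 0.0095 (limma). The adjusted p passed in 5 of the 6 fits without 1 array and was 0.0514 without drought plant 12.

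SACPD-C, the copy known from high-stearate mutants, did not pass the test. It measured 0.03, -0.03 and 0.25 in drought plants 11, 12 and 13, against -0.47, 0.20 and -0.06 in well-watered plants 1, 3 and 4. The groups overlapped, and the spread was larger in well-watered leaves (SD 0.34) than in drought leaves (SD 0.15). The log2 fold change was 0.19 ± 0.20 (SE, n = 3 per group), with a 95% interval of -0.26 to 0.65 and an adjusted p of 0.601 (limma). The interval leaves room for a small change of the measured signal in either direction but not for the fall measured for SACPD-B. Signal over background is unknown, so the size of any change in the transcript itself cannot be bounded.

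The 2 FAD2-1 genes, of the class that stands between the others, did not pass the test. Other omega-6 desaturase genes were not examined, so the values do not describe that step as a whole. FAD2-1A measured -0.06, 0.06 and 0.10 in drought plants 11, 12 and 13, against -0.38, 0.20 and -0.25 in well-watered plants 1, 3 and 4. The drought values lay inside the range of the well-watered values. The log2 fold change was 0.17 ± 0.19 (SE, n = 3 per group), with a 95% interval of -0.25 to 0.60 and an adjusted p of 0.624 (limma).

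FAD2-1B measured -0.22, 0.08 and -0.27 in drought plants 11, 12 and 13, against -0.08, 0.19 and 0.33 in well-watered plants 1, 3 and 4. Drought plant 12 lay above well-watered plant 1, so the groups overlapped. The log2 fold change was -0.28 ± 0.18 (SE, n = 3 per group), with a 95% interval of -0.69 to 0.13 and an adjusted p of 0.358 (limma). For neither FAD2-1 gene does the interval reach the 2-fold criterion, which again holds for the measured signal only.

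**Figure D2:**
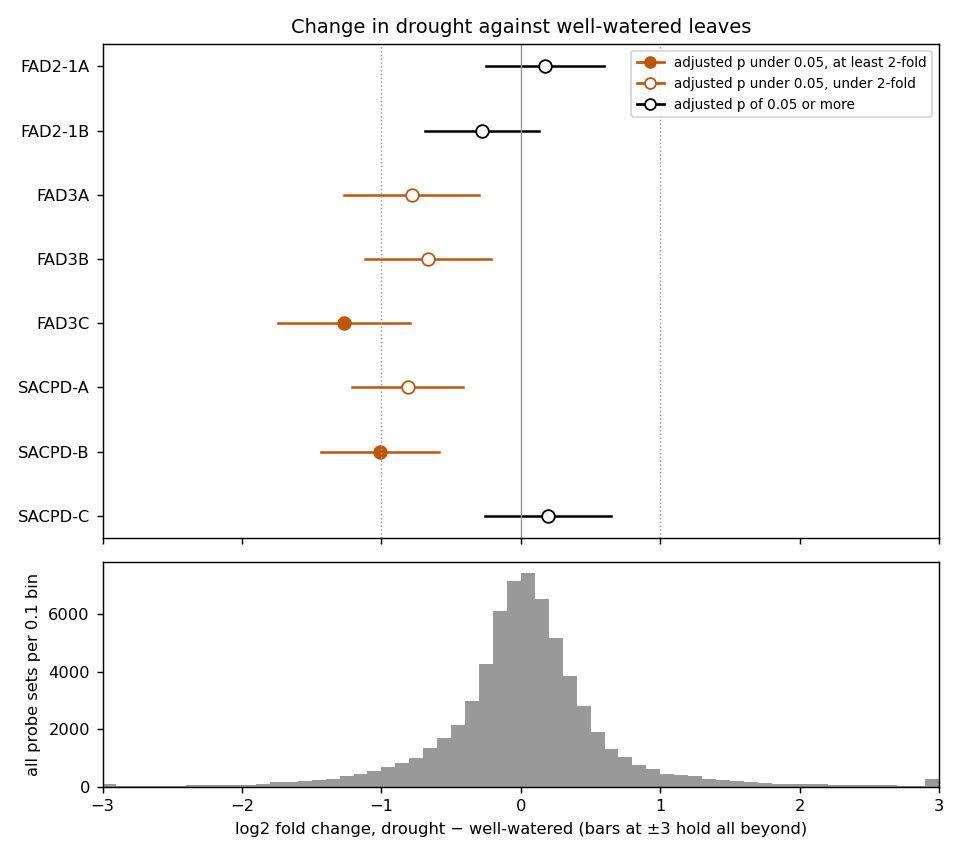
Upper panel, log2 fold change of drought over well-watered leaves for each desaturase gene with its 95% interval (limma, n = 3 per group), dotted lines marking 2-fold. Lower panel, the number of probe sets in each bin of log2 fold change over the whole array. FAD3C at -1.27 and SACPD-B at -1.01 reach 2-fold, 3 genes pass the adjusted p between -0.81 and -0.67, and FAD2-1A, FAD2-1B and SACPD-C have intervals that span 0.

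Related genes were then compared on the same array, where a shift of the whole array cancels. In 5 such comparisons the exact two-sided permutation test of 3 against 3 arrays cannot give a p below 0.1, so none could pass 0.05. The centring leaves the sign of such a difference arbitrary, so it does not rank the genes. Only its shift between the groups can be read. The centred value of SACPD-C minus the mean of SACPD-A and SACPD-B was 0.43, 0.42 and 0.80 in drought plants 11, 12 and 13. In well-watered plants 1, 3 and 4 it was -1.08, -0.24 and -0.34. The groups did not overlap, and they differed by 1.11 on the log2 scale (exact p = 0.1, adjusted p = 0.25 over the 5 comparisons). The difference lay between 0.84 and 1.26 when each array was left out in turn.

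The centred value of FAD3C minus the mean of FAD3A and FAD3B was -0.79, -0.05 and -0.25 in drought plants 11, 12 and 13. In well-watered plants 1, 3 and 4 it was 0.00, 0.44 and 0.10. The groups did not overlap, but drought plant 12 and well-watered plant 1 nearly met. The groups differed by -0.54 (exact p = 0.1, adjusted p = 0.25), and by -0.33 without drought plant 11.

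The 3 remaining comparisons set copies with like names against each other. For FAD2-1A minus FAD2-1B the means were 0.17 ± 0.19 in drought and -0.29 ± 0.29 in well-watered leaves (SD, n = 3 each), a difference of 0.45 (exact p = 0.2, adjusted p = 0.333). For SACPD-A minus SACPD-B they were 0.12 ± 0.35 in drought and -0.07 ± 0.28 in well-watered leaves (SD, n = 3 each), a difference of 0.20 (exact p = 0.4, adjusted p = 0.5). For FAD3A minus FAD3B they were 0.19 ± 0.31 in drought and 0.31 ± 0.67 in well-watered leaves (SD, n = 3 each), a difference of -0.12 (exact p = 0.9, adjusted p = 0.9). In all 3 the group ranges overlapped, and with so few arrays these values do not show that the copies responded alike.

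**Figure D3:**
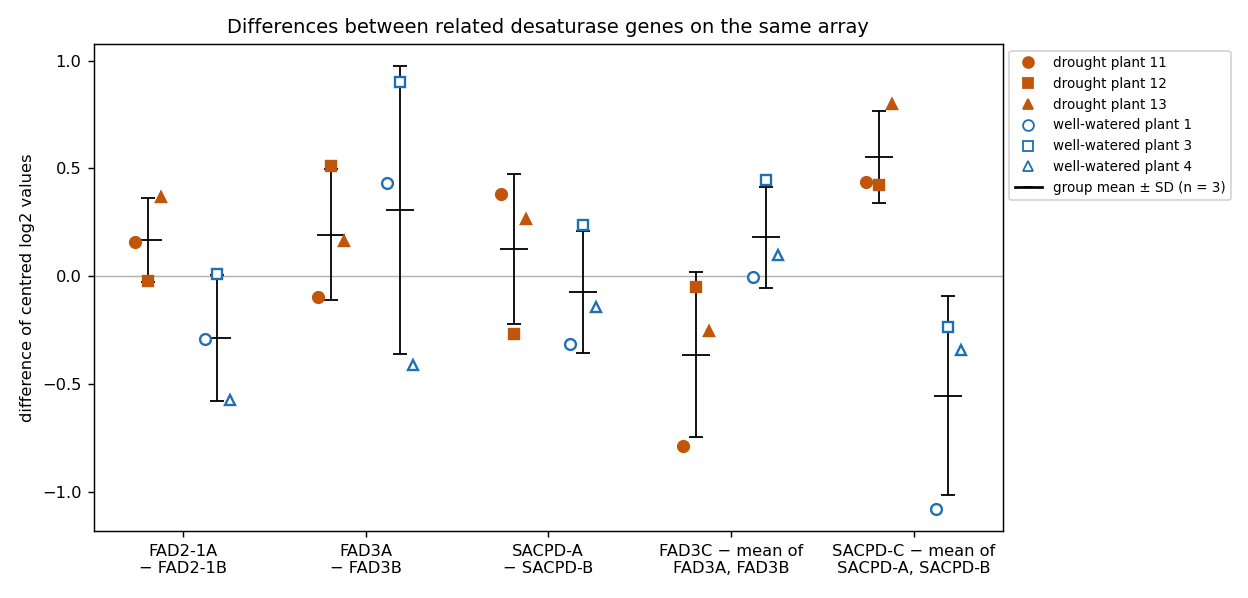
Difference between related desaturase genes measured on the same array (vertical axis, centred log2 values) for the 3 drought plants (filled) and the 3 well-watered plants (open), with the group mean and SD (n = 3). The SACPD-C comparison is higher in every drought plant than in every well-watered plant, 1.11 apart on average, while the 3 comparisons on the left overlap. The sign of a difference does not rank the genes, since each gene is centred on its own middle.

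Over the 6 arrays, FAD3A and SACPD-A had the most similar values of any 2 desaturase genes (Pearson's r = 0.91). The least similar were SACPD-B and SACPD-C (r = -0.66). These values are descriptions only, since the 6 points fall into the 2 groups compared. FAD2-1A and SACPD-C, the genes with slightly positive fold changes and a pair picked after the values were seen, went together with r = 0.88. Their deviations from the group means did so too (r = 0.86). Over all pairs of desaturase genes, r of these deviations ran from -0.89 (SACPD-B and SACPD-C) to 0.87 (FAD2-1A and FAD3C). FAD2-1A and SACPD-C were both lowest in well-watered plant 1 and highest among the controls in well-watered plant 3. The medians of these arrays over all probe sets were -0.11 and 0.13. The part of this array difference in their values was not tested. The probe sets whose pattern was most like that of FAD3C were those of Glyma17g19850 (r = 0.999, log2 fold change -0.50, limma adjusted p = 0.054) and Glyma03g37180 (r = 0.998, log2 fold change -0.64, limma adjusted p = 0.0225), neither of which the files pair with a name, and 226 probe sets had r above 0.98.

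Other genes of acyl lipid metabolism were taken from the genes of chromosome 1 that the study annotated by similarity to Arabidopsis genes, which gave 16 genes. Of these 5 were lower and 0 were higher at an adjusted p under 0.05 (limma), against 9.95% and 9.96% of all probe sets, and 2 were called lower and 0 higher with the 2-fold criterion, against 4.63% and 4.98%. At an unadjusted p under 0.05, 6 were lower and 2 were higher, against 15% and 15.7% of all probe sets. The methods' t-test called 1 lower and 0 higher, against 3.08% and 3.5%. The median log2 fold change of these genes was -0.13. They come from 1 chromosome and are not the whole of the pathway.

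Among these 16 genes was 1 more omega-3 desaturase gene, Glyma01g29630, similar to FAD8, the plastid enzyme that makes linolenate in leaf lipids. It measured -0.22, -0.28 and -0.47 in drought plants 11, 12 and 13, against 0.22, 0.71 and 0.52 in well-watered plants 1, 3 and 4. The groups stood 0.44 apart. Its log2 fold change was -0.81 ± 0.18 (SE, n = 3 per group; limma adjusted p = 0.0106), close to those of FAD3A and FAD3B. The methods' t-test gave adjusted p = 0.0551.

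The other desaturase gene of the list, Glyma01g05470, similar to a delta-8 sphingolipid desaturase, which acts on the long-chain base of sphingolipids and not on free or glycerolipid acyl chains, measured 0.23, 0.03 and -0.03 in drought plants 11, 12 and 13, against -0.39, 0.34 and -0.37 in well-watered plants 1, 3 and 4. Its groups overlapped, and the log2 fold change was 0.22 ± 0.22 (SE, n = 3 per group; limma adjusted p = 0.579).

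The largest fall in the list was that of Glyma01g27900, similar to GPAT6, a glycerol-3-phosphate acyltransferase of cutin synthesis. It measured -0.53, -0.93 and -1.0 in drought plants 11, 12 and 13, against 1.68, 0.96 and 0.53 in well-watered plants 1, 3 and 4, and its log2 fold change was -1.88 ± 0.28 (SE, n = 3 per group; limma adjusted p = 0.000977). The methods' t-test gave it an adjusted p of 0.0529. Glyma01g42430, similar to the phospholipase D PLDBETA2, which cleaves the head group from membrane phospholipids, had a log2 fold change of -1.05 ± 0.18 (limma adjusted p = 0.00209), which was -0.98 without drought plant 12 and -0.95 without well-watered plant 1. The remaining genes past the adjusted p, named after their values were seen, were Glyma01g36680, similar to PLDDELTA, at -0.68 and Glyma01g39920, similar to the acyl-CoA-binding protein ACBP3, at -0.67, and neither passed the methods' t-test. The 2 genes higher at an unadjusted p under 0.05 (limma) were also named after their values were seen. Glyma01g00710, similar to a phospholipase A2 gamma, stood at 0.64 (limma adjusted p = 0.051). Glyma01g20720, similar to LTA2, a plastid subunit of pyruvate dehydrogenase, stood at 0.46 (limma adjusted p = 0.0954). Glyma01g42420, similar to PLDBETA1 and likewise named afterwards, stood at -0.03 (limma adjusted p = 0.956).

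**Figure D4:**
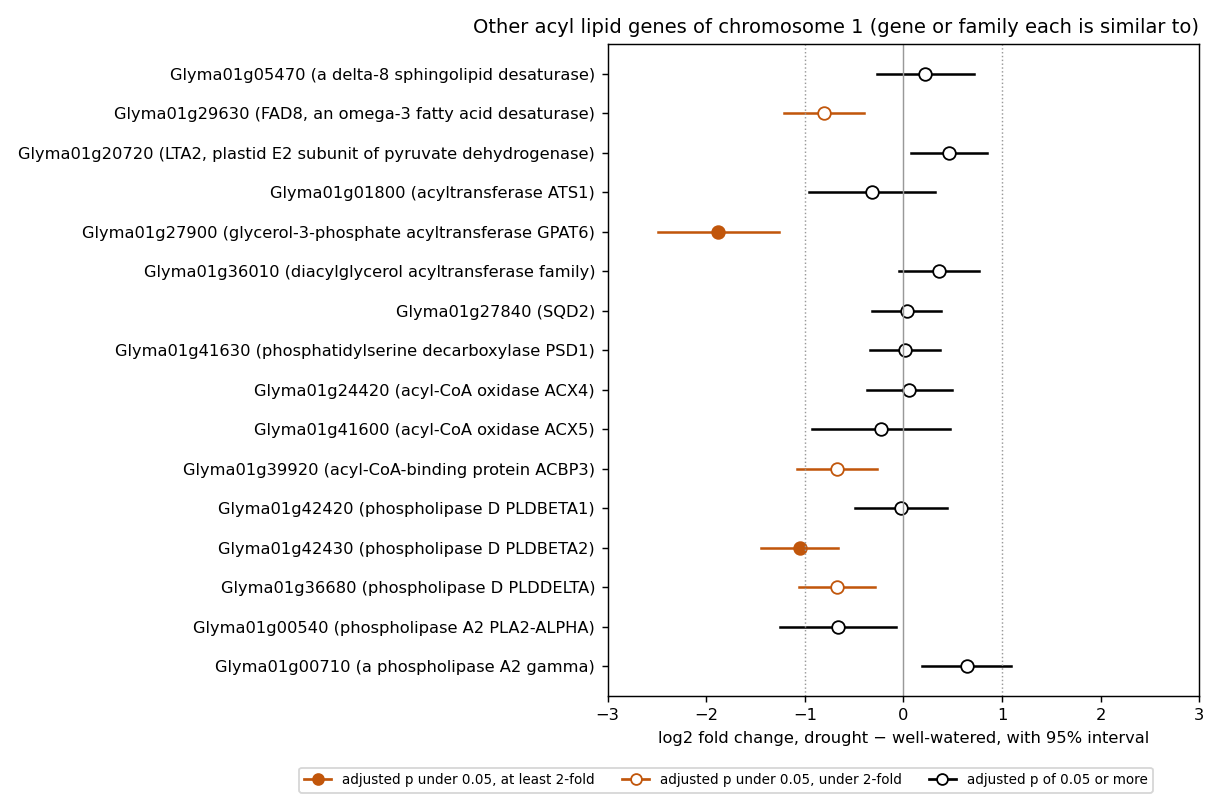
Log2 fold change of drought over well-watered leaves with its 95% interval (limma, n = 3 per group) for the 16 other acyl lipid genes of chromosome 1, dotted lines marking 2-fold. The FAD8-like gene lies at -0.81, and the genes similar to GPAT6 and PLDBETA2, at -1.88 and -1.05, are the 2 called lower.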

How the data were processed

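Leaf RNA of 3 drought-stressed and 3 well-watered plants was measured on 1 array each. The authors summarised probes per gene by RMA without normalization in Affymetrix Expression Console (both also named in the submitters' processing notes) and scaled each array's log2 values to its 75th percentile in GeneSpring. The deposited log2 values are in addition centred on every probe set's median (largest absolute row median 5e-07), which removes the absolute level, so dim probe sets could not be filtered and no intensity trend was fitted. The table of the authors' own comparison (folds and p-values) served only to pair probe sets with gene identifiers.

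Groups came from the labels. A limma 3.58.1 model (lmFit, eBayes) with treatment as its single factor was fitted in R 4.3.3 to all 66184 probe sets, p-values being adjusted by Benjamini-Hochberg over all of them. Calls required an adjusted p under 0.05 together with at least 2-fold change. The fit was tested on simulated data. The 8 desaturase genes were picked by identifier and not by their values. Earlier results of these data were, however, known when the genes, lists and tests were chosen. Named were all 8 desaturase genes, the desaturases and called genes of the chromosome 1 list, and the 2 probe sets most correlated with the desaturase gene of largest change; further genes named outside this rule are marked as chosen after their values were seen. None of the array's identifiers matched the RefSeq table of assembly Glycine_max_v4.0, so gene names follow the gene set as given and the study's annotation. Sequences were not analysed here. Alternatives were the methods' t-test, array weights, quantile normalization, subtracting each array's median or again its 75th percentile, dropping the fold criterion, counting identical probe sets once and leaving out each array.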

Additional observations from a re-analysis of the deposited data

How the results depend on the processing

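With 3 arrays a group the precision is limited, and signal over background is unknown. In the 10 alternatives that estimated the fold changes anew, no desaturase gene changed direction. In 95 of 104 values over all 13 alternatives the 8 genes kept their side of the call, 5 lost it, all of them SACPD-B, and 4 gained it. The count of 2 desaturase genes called lower was 1 with each array's 75th percentile subtracted again and 1 with array weights. SACPD-B stood at -0.98 and -0.91 there. Of the 66184 probe sets, 2908 and 3104 were called lower in these fits, in the same order, against 3065 in the main fit. The count of desaturase genes called lower was 5 with no fold criterion, and between 1 and 3 when each array was left out. The 3 were reached without well-watered plant 4, where FAD3A stood at -1.02. The count of 5 at the adjusted p alone was 4 with array weights and 4 with each array's 75th percentile subtracted again. The same count was 3 with the methods' t-test and between 2 and 4 when each array was left out, which also leaves fewer arrays. It was 2 without drought plant 12 and 3 without drought plant 13 or well-watered plant 1. For the alternatives that estimated the fold changes anew, the shares of all probe sets at the adjusted p alone are not given here. For the other acyl lipid genes, the 2 called lower became 1 with the methods' t-test and 5 with no fold criterion. They became 1 to 2 when each array was left out. The 5 at the adjusted p alone became 1 of 16 with the methods' t-test, against 5.92% of all probe sets. They became 2 to 5 when each array was left out, with 3 without drought plant 11 and 2 without drought plant 13. The difference between FAD3A and FAD3B in response, -0.12, ran between -0.48 and 0.18 when each array was left out, being 0.03 without drought plant 11 and 0.18 without well-watered plant 3. Apart from the effect of fewer arrays, the cause of these changes was not tested. No paired analysis was possible because the groups share no plant number. The filter on dim probe sets and the intensity trend were not run.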

Other observations

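The genes next to the desaturase genes on the chromosome, taken as 2 identifiers on either side, were mostly not called. Of these 32 neighbours 3 were called higher and 1 was called lower in drought, against 4.98% and 4.63% of all probe sets, and their median log2 fold change was 0.17. At the limma adjusted p alone, Glyma14g37330 (0.00856), Glyma02g15590 (0.0241), Glyma20g24550 (0.0315) and Glyma02g39210 (0.041) were higher too. No further neighbour was lower. Among all probe sets 9.96% were higher and 9.95% lower at that threshold. All neighbours named here were singled out after their values were seen. Those called higher had the next higher identifier after FAD2-1A and FAD2-1B, which did not pass the test, and after SACPD-A, which fell. The neighbour of SACPD-A had a log2 fold change of 1.05 (limma adjusted p = 0.00333). Next to FAD2-1A, Glyma10g42480 measured 0.44, 0.66 and 0.75 in drought plants 11, 12 and 13, against -0.44, -0.74 and -0.49 in well-watered plants 1, 3 and 4 (log2 fold change 1.17 ± 0.17, SE, n = 3 per group; limma adjusted p = 0.000998). Next to FAD2-1B, Glyma20g24540 measured 0.46, 0.58 and 0.53 in drought plants 11, 12 and 13, against -0.46, -0.61 and -0.54 in well-watered plants 1, 3 and 4 (log2 fold change 1.06 ± 0.16, SE, n = 3 per group; limma adjusted p = 0.000949). The neighbour called lower, Glyma20g24510, also lies by FAD2-1B, with a log2 fold change of -1.13 ± 0.15 (limma adjusted p = 0.000647). No names are given for these identifiers in the files used here.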
